A study of Mus musculus with 10 samples.

Results

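The response to type I interferon was followed through 39 genes in the left ventricle of male 129X1/SvJ mice. The genes were chosen by symbol, and 38 of them had a row of their own among the 23303 gene entries of the table. Eif2ak2, which encodes the RNA-activated kinase PKR, occurred only in an entry joined with Gm6548. Of the 38, 36 had a mean of at least 0.5 FPKM over all 10 libraries and were tested among 12585 genes that met the same limit. FPKM is the number of fragments scaled to transcript length and to the library's mapped fragments. Oas3 and Mx1 fell below the limit.

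The series concerns uremic cardiomyopathy, a heart disorder of kidney failure, and has 5 mice labelled CKD (chronic kidney disease) and 5 labelled Sham under surgery. All mice were male and of the same strain. The operation that gave CKD, the time after it and the age of the mice are not given in the sources used here. Each library is named for a separate mouse, and the numbers 1 to 5 within a group only name the mice.

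Type I interferons, the interferon alpha and beta proteins, bind a receptor made of IFNAR1 and IFNAR2. The kinases JAK1 and TYK2 then activate STAT proteins such as STAT2, which acts with IRF9 in a complex called ISGF3. ISGF3 binds a DNA element, the interferon-stimulated response element, near the start of many antiviral genes. Many of the same genes also respond to interferon gamma or directly to factors such as IRF3. In the heart, cardiomyocytes, endothelial cells, fibroblasts and macrophages can all express them, and in bulk tissue a change in the number of such cells cannot be told apart from a change in RNA per cell.

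The core of the element was searched for as 2 copies of GAAA with any 2 bases between them, or 2 copies of TTTC spaced likewise on the other strand. RefSeq promoter windows of GRCm38.p6, from 250 bases before to 50 bases after a gene's start, were present for 28 of the 39 members. The core occurred on either strand, with overlapping matches counted, in the windows of 13 of these 28 genes. Of all 32851 windows of the same length, 3.44% held it, against 42.4% of the 33 member windows. The matches are letters in a window and are not evidence of binding. A match lay before the start in 9 tested members, and the stretches of 7 of them are shown as examples of the element, leaving out Trim30a and Lgals9. Of the 26 tested members with a window, 15 held no match. They run 5′ to 3′ along the gene's own strand, with the matches in capitals.
Isg15 (chr4:156200851-156200920, minus strand): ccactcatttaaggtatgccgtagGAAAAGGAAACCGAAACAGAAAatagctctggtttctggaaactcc
Oas1a (chr5:120907526-120907569, minus strand): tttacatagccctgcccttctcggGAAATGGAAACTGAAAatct
Bst2 (chr8:71537563-71537626, minus strand): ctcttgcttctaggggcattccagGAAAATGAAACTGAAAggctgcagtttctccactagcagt
Stat2 (chr10:128270252-128270309, plus strand): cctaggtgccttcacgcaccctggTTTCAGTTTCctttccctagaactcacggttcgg
Rsad2 (chr12:26456539-26456596, minus strand): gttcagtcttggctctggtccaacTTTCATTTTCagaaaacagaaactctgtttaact
Ifit3 (chr19:34583349-34583440, plus strand): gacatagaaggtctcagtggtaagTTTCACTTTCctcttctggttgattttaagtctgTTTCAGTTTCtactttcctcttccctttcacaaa
Ifit1 (chr19:34640761-34640837, plus strand): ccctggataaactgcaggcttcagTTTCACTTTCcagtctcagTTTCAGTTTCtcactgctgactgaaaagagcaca
Isg15 held 3 overlapping matches, Oas1a and Bst2 held 2 overlapping matches each, and Ifit3 and Ifit1 held 2 separate matches each. The first match began 78 bases before the start in Isg15 and 20 bases before it in Oas1a.

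Libraries differed in ways that bear on these genes. CKD 1 and Sham 1 stood apart from the other 8: their 10 most abundant genes took 14.8% and 15.3% of the summed FPKM, against 17.6% to 18.2% elsewhere. The steps between low values gave depths from 0.906 to 1.15 times that of Sham 2 for the other 7, with 294 to 360 low genes sharing a step. In CKD 1 and Sham 1 only 36 and 32 low genes did, so their depth is unknown. No pair of libraries was identical, and log2 values correlated between libraries with r from 0.97 to 0.99 across genes. The tissue carried cardiomyocyte markers, of which 9 of 10 were abundant. Myh6 was listed at 0 in every library, for a reason not given in the sources used here. That listing sets no limit on its level. The atrial markers Sln, Myl7 and Myl4 summed to between 5.09 and 9.94 FPKM in CKD and between 5.66 and 9.16 in Sham. The summed cardiomyocyte markers were lowest in CKD 1 (65559 FPKM) and Sham 1 (69161), and the part of this in the results was not tested.

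Interferon response genes had higher values in CKD hearts, modestly so in the 4 mice CKD 2 to CKD 5 and far more in CKD 1. All 36 tested genes had a positive change, against 49.2% of all genes tested, and their median change was 0.63 on the log2(FPKM + 0.5) scale, against -0.0025 over all genes. With all 10 libraries 6 members rose: Ifi27l2a, Lgals3bp, Ifi35, Lgals9, Oas2 and Oas1a. They are 16.7% of the tested members, where 3.08% of all genes were called higher by limma at an adjusted p under 0.05. No member was called lower by limma or had a negative change, against 1.97% of all genes called lower. At an unadjusted p under 0.05, 29 members were higher, against 10.5% of all genes.

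Without CKD 1 the changes were smaller and more of them passed. The median change was 0.41, all 36 were still positive against 48.0% of all genes, and 14 members rose (38.9%), against 2.65% of all genes. These 14 held all 6 called with 10 libraries, and added Irf7, Irf9, Stat2, Oasl2, Ifit3, Bst2, Xaf1 and Rtp4. Without both CKD 1 and Sham 1, 10 members rose, against 2.50% of all genes, and 9 of them were among the 14. The number called with all libraries was small and moved with single mice. It was 3 when CKD 2, CKD 5, Sham 1, Sham 2 or Sham 3 was left out, 4 when CKD 3, Sham 4 or Sham 5 was, 9 without CKD 4, and 3 with no filter on low values. The share of all genes called higher was 1.76% to 3.22% over the fits without 1 library and 2.00% with no filter.

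Sorted by mouse, the members above every Sham library numbered 35 of 36 in CKD 1, 25 in CKD 2, 29 in CKD 3, 20 in CKD 4 and 33 in CKD 5. The same held for 24.1%, 20.6%, 18.0%, 17.4% and 20.0% of all genes tested. The mean deviation of the 36 members from the Sham mean was 1.47 in CKD 1, 0.44 in CKD 2, 0.40 in CKD 3, 0.21 in CKD 4 and 0.65 in CKD 5 (log2). In the Sham mice it lay between -0.07 and 0.05, with 0.05 in Sham 1, the library that stood apart together with CKD 1. CKD 1 was the highest of all 10 libraries for 34 members, against 14.9% of all genes, and exceeded every other library by over 1 on the log2 scale for 14, against 0.461%. Among the other 4 CKD mice, CKD 5 was highest for 24 members. CKD 4 had the lowest CKD value for 21.

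**Figure D1:**
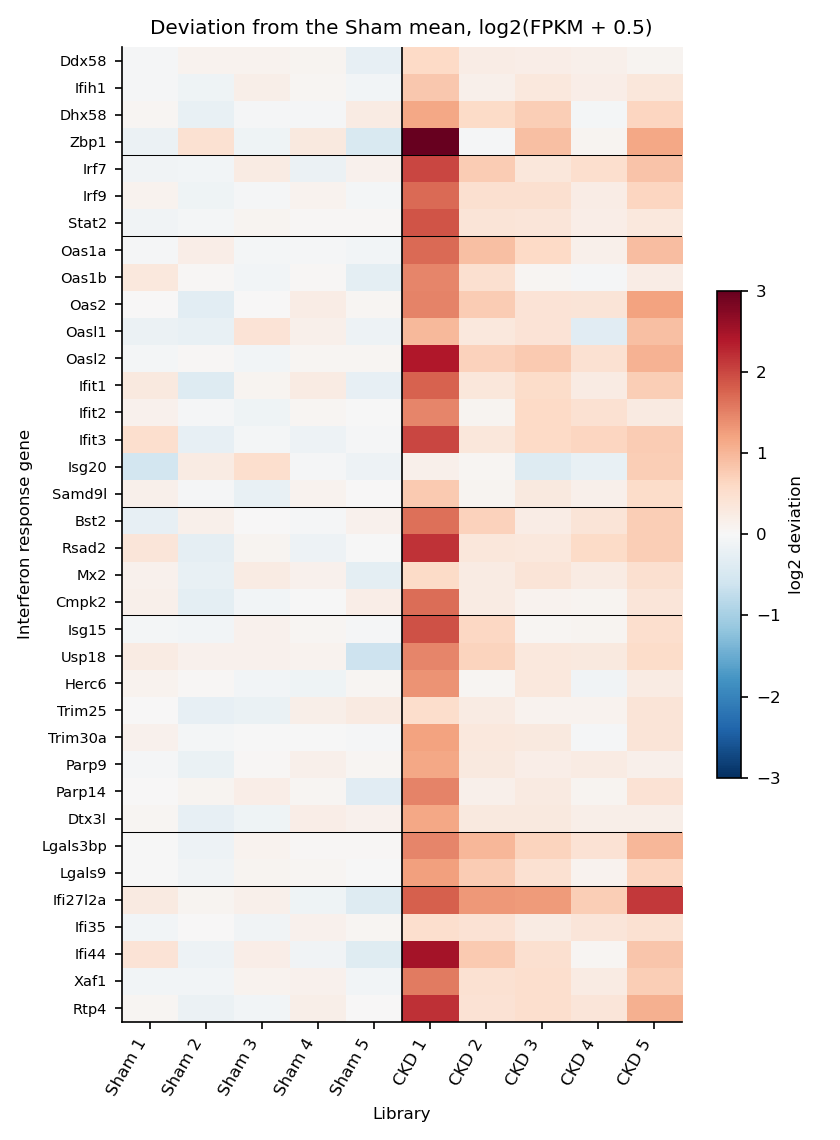
Deviation of each tested interferon response gene (rows, grouped by role) from the Sham mean on the log2(FPKM + 0.5) scale in each library (columns, Sham left, CKD right). CKD 1 is the darkest column, with a mean of 1.47, and CKD 2 to CKD 5 are paler, between 0.21 and 0.65.

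Of the transcription factors of the response, Irf7, Irf9 and Stat2 lay above all Sham values in every CKD mouse, against 4.08% of all genes. All 3 rose in the comparison without CKD 1, against 2.65% of all genes. Irf7, the factor that amplifies interferon production, was at 21.8, 8.84, 6.55, 7.34 and 9.45 FPKM in CKD 1 to CKD 5 and at 4.62, 4.69, 6.04, 4.42 and 5.58 in Sham 1 to Sham 5. CKD 1 was the highest, and no CKD mouse reached down to the Sham range (log2 0.89, SE 0.25, adjusted p = 0.0680 with all 10 libraries and log2 0.61, SE 0.12, adjusted p = 0.0174 without CKD 1). Irf9, the DNA-binding part of ISGF3, was at 25.0, 10.5, 10.5, 8.66 and 11.9 FPKM in CKD 1 to CKD 5 and at 8.05, 6.71, 7.17, 8.03 and 7.14 in Sham 1 to Sham 5. Stat2, the activating part of ISGF3, was at 20.4, 6.82, 6.76, 5.91 and 6.54 FPKM in CKD 1 to CKD 5 and at 4.76, 4.91, 5.48, 5.22 and 5.26 in Sham 1 to Sham 5. The Stat2 values of CKD 2 to CKD 5 lay close together, just above Sham, with CKD 1 far above them. Without CKD 1 the change was 1.37-fold for Irf9 (log2 0.45, SE 0.09, adjusted p = 0.0199) and 1.25-fold for Stat2 (log2 0.32, SE 0.07, adjusted p = 0.0297). With CKD 1 included, the adjusted p of these 2 genes was 0.0924 and 0.217.

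The oligoadenylate synthetases sense double-stranded RNA and make the messenger that activates RNase L. Oas2 was at 8.76, 5.10, 3.88, 3.79 and 7.10 FPKM in CKD 1 to CKD 5 and at 2.78, 2.14, 2.81, 3.36 and 2.93 in Sham 1 to Sham 5. Every CKD value lay above every Sham value, with CKD 1 and CKD 5 highest (log2 0.86, SE 0.20, adjusted p = 0.0325 with all 10 libraries and log2 0.70, SE 0.17, adjusted p = 0.0401 without CKD 1). Oas1a was at 3.54, 1.82, 1.37, 0.883 and 1.84 FPKM in CKD 1 to CKD 5 and at 0.707, 0.914, 0.691, 0.701 and 0.673 in Sham 1 to Sham 5. In CKD 4 it lay within the Sham range, and the other 4 CKD mice lay above it (log2 0.86, SE 0.22, adjusted p = 0.0490 with all 10 libraries and log2 0.65, SE 0.16, adjusted p = 0.0424 without CKD 1). Oasl2, a related protein, was at 13.2, 3.64, 3.96, 3.06 and 4.80 FPKM in CKD 1 to CKD 5 and at 1.96, 2.15, 1.92, 2.18 and 2.18 in Sham 1 to Sham 5. Its Sham values hardly varied, the groups did not overlap, and the gene rose without CKD 1 (log2 0.75, SE 0.11, adjusted p = 0.00506; adjusted p = 0.0548 with all libraries). Oas1b and Oasl1 passed in neither fit (log2 0.44 and 0.45). Oas3, which was not tested, was at 0.283, 0.0496, 0.0659, 0.0579 and 0.104 FPKM in CKD 1 to CKD 5 and at 0.0229, 0.0189, 0.0367, 0 and 0.0417 in Sham 1 to Sham 5, near the lower end of what the table lists. Oas1a no longer passed when CKD 2, CKD 3, CKD 5 or any Sham mouse was left out (adjusted p up to 0.108), and Oas2 when CKD 2, CKD 5, Sham 1, Sham 2 or Sham 3 was (up to 0.0787). Oas1a, Oas1b, Oas2 and Oas3 are close relatives that lie together on chromosome 5 (Oas2 at chr5:120730333-120749886, Oas1a at chr5:120896256-120907544), and the sources used here do not say how reads shared between them were assigned.

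The Ifit proteins bind foreign or uncapped RNA and hold back its translation. Ifit3 was at 13.9, 4.05, 4.90, 5.12 and 5.56 FPKM in CKD 1 to CKD 5 and at 4.56, 2.53, 2.96, 2.73 and 3.00 in Sham 1 to Sham 5. Sham 1 lay within the CKD range, and the other Sham mice lay below all CKD mice. The gene rose without CKD 1 (log2 0.58, SE 0.15, adjusted p = 0.0462), and its adjusted p was 0.0888 with all libraries. Its neighbours on chromosome 19, Ifit1 and Ifit2 (chr19:34640889-34650009 and chr19:34550550-34576534), had changes of 0.73 and 0.57 with all libraries and 0.46 and 0.35 without CKD 1, and passed in neither fit. Isg20, an RNA exonuclease, was the member with the smallest change (log2 0.07, SE 0.22, adjusted p = 0.915), and its sign was negative without CKD 5 or without Sham 1. Samd9l, an antiviral protein that restrains growth, had a change of 0.37 and did not pass. The joined Eif2ak2 entry was at 8.48, 8.75, 9.32, 7.10 and 8.12 FPKM in CKD 1 to CKD 5 and at 6.36, 7.38, 8.62, 8.19 and 8.43 in Sham 1 to Sham 5, with overlapping groups.

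Bst2, the membrane protein tetherin that holds budding virus on the cell surface, was at 56.9, 29.1, 21.0, 23.4 and 29.9 FPKM in CKD 1 to CKD 5 and at 15.1, 20.0, 17.9, 17.3 and 19.5 in Sham 1 to Sham 5. All CKD mice lay above all Sham mice, and the gene rose without CKD 1 (log2 0.51, SE 0.11, adjusted p = 0.0297; adjusted p = 0.0730 with all libraries). Rsad2, the enzyme viperin that makes a chain-terminating nucleotide, was at 14.4, 3.69, 3.57, 4.41 and 4.98 FPKM in CKD 1 to CKD 5 and at 3.74, 2.24, 2.98, 2.44 and 2.76 in Sham 1 to Sham 5. CKD 2 and CKD 3 lay below Sham 1, and of the 22 alternatives the gene passed only in that without both CKD 1 and Sham 1 (log2 0.58, adjusted p = 0.0291; adjusted p = 0.149 with all libraries). Cmpk2, a nucleotide kinase whose gene neighbours Rsad2 on chromosome 12, had 3.70 times the Sham mean in CKD 1 and 1.17 times in CKD 2 to CKD 5, and did not pass. Of the Mx GTPases, Mx2 did not pass (log2 0.39, SE 0.13, adjusted p = 0.113 with all 10 libraries and log2 0.34, SE 0.14, adjusted p = 0.189 without CKD 1). Mx1 was listed at 0.226 to 0.570 FPKM in CKD and at 0 to 0.299 in Sham and was not tested.

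The 4 cytosolic sensors of nucleic acid did not pass with all libraries or without CKD 1. Zbp1, a sensor of Z-form nucleic acid linked to cell death, had the largest ratio of CKD 1 to Sham of any tested member, 15.6-fold. It was at 6.79, 0.390, 1.21, 0.456 and 1.54 FPKM in CKD 1 to CKD 5 and at 0.302, 0.748, 0.337, 0.619 and 0.164 in Sham 1 to Sham 5. The Sham mean of 0.434 FPKM was below the limit of 0.5, so the ratio has a low denominator. CKD 2 and CKD 4 lay within the Sham range, and CKD 3 and CKD 5 lay between it and CKD 1. The change had a wide error (log2 1.02, SE 0.48, adjusted p = 0.266 with all 10 libraries and log2 0.53, SE 0.28, adjusted p = 0.314 without CKD 1). The helicases Ddx58 (RIG-I), Ifih1 (MDA5) and Dhx58 (LGP2), which detect viral RNA in the cytosol, had changes of 0.26, 0.36 and 0.61, and 0.17, 0.24 and 0.48 without CKD 1. For each of the 3, exactly 4 of 5 CKD mice lay above every Sham mouse, against 4.57% of all genes. Dhx58 passed when CKD 4, its lowest CKD mouse, was left out (log2 0.78, adjusted p = 0.0126).

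None of the 8 genes of ubiquitin-like conjugation and ADP-ribosylation passed in either fit. All 8 changes were positive, against 49.2% of all genes with all libraries and 48.0% without CKD 1. Isg15 encodes the ubiquitin-like modifier itself, Herc6 its ligase in mice and Usp18 the protease that removes it. Isg15 was at 20.3, 7.94, 5.19, 5.28 and 7.23 FPKM in CKD 1 to CKD 5 and at 4.75, 4.70, 5.47, 5.25 and 4.84 in Sham 1 to Sham 5. CKD 3 and CKD 4 lay within the Sham range (adjusted p = 0.254 with all libraries and 0.180 without CKD 1). Usp18 lay above all Sham mice in every CKD mouse, from 2.12 to 5.47 FPKM against 0.904 to 2.05, with an adjusted p of 0.127. Parp9, an ADP-ribosyltransferase that works in a complex with the ligase Dtx3l, did so too, but only just, since its lowest CKD value and its highest Sham value were both 7.15 FPKM when rounded. Parp9 and Dtx3l overlap on chromosome 16 (chr16:35938470-35972621 and chr16:35926515-35939027), and the sources used here do not say whether counting used strand. Parp14, Herc6, Trim25 and Trim30a had changes from 0.27 to 0.48.

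Both genes of the galectin pathway rose, with CKD 1 (3.08% of all genes called higher) and without it (2.65%). Lgals3bp (chr11:118392747-118401959), a glycoprotein that binds galectins, was at 39.5, 28.5, 22.4, 19.1 and 28.2 FPKM in CKD 1 to CKD 5 and at 13.8, 12.6, 15.0, 14.3 and 14.3 in Sham 1 to Sham 5. It rose 1.88-fold, and the groups did not overlap (log2 0.91, SE 0.15, adjusted p = 0.00632 with all 10 libraries and log2 0.77, SE 0.11, adjusted p = 0.00441 without CKD 1). Lgals9 (chr11:78962979-78984924), which encodes galectin-9, was at 41.0, 29.1, 23.8, 18.5 and 26.9 FPKM in CKD 1 to CKD 5 and at 16.9, 15.8, 18.2, 17.7 and 16.9 in Sham 1 to Sham 5. It rose 1.56-fold with CKD 4 just above the Sham range (log2 0.64, SE 0.16, adjusted p = 0.0399 with all 10 libraries and log2 0.49, SE 0.11, adjusted p = 0.0300 without CKD 1). Lgals9 no longer passed when any library but CKD 1 or CKD 4 was left out (adjusted p up to 0.0980).

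Ifi27l2a (chr12:103433873-103443680), which encodes a small hydrophobic protein of intracellular membranes, had the largest fold change of the called members. It was at 76.2, 54.3, 53.4, 36.1 and 95.9 FPKM in CKD 1 to CKD 5 and at 25.9, 23.0, 24.1, 19.8 and 16.4 in Sham 1 to Sham 5. The highest value was in CKD 5, not CKD 1, and all CKD mice lay above all Sham mice (2.73-fold; log2 1.45, SE 0.22, adjusted p = 0.00390 with all 10 libraries and log2 1.36, SE 0.23, adjusted p = 0.00841 without CKD 1). Ifi35 (chr11:101448412-101458701), a regulator of innate immune signalling, was at 26.4, 25.3, 22.2, 23.9 and 25.8 FPKM in CKD 1 to CKD 5 and at 17.5, 18.8, 17.1, 20.4 and 19.2 in Sham 1 to Sham 5. Its change was small and even among the CKD mice (1.32-fold; log2 0.40, SE 0.07, adjusted p = 0.00566 with all 10 libraries and log2 0.38, SE 0.07, adjusted p = 0.0117 without CKD 1). Ifi27l2a, Lgals3bp and Ifi35 passed in all 22 alternatives tried.

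Xaf1, a partner of the apoptosis inhibitor XIAP, was at 29.0, 13.1, 13.7, 11.3 and 16.1 FPKM in CKD 1 to CKD 5 and at 8.89, 8.95, 10.3, 10.4 and 8.86 in Sham 1 to Sham 5. Rtp4, a transporter of membrane receptors, was at 15.3, 4.16, 4.36, 3.90 and 6.74 FPKM in CKD 1 to CKD 5 and at 3.09, 2.56, 2.73, 3.39 and 2.97 in Sham 1 to Sham 5. Neither gene's groups overlapped, and both rose without CKD 1 (log2 0.49 and 0.59, adjusted p = 0.0179 and 0.0380; 0.0653 and 0.0985 with all libraries). Ifi44, a cytosolic antiviral protein, was at 10.8, 2.93, 2.29, 1.58 and 3.06 FPKM in CKD 1 to CKD 5 and at 2.15, 1.29, 1.81, 1.37 and 1.05 in Sham 1 to Sham 5. CKD 4 lay within the Sham range, and the gene passed in neither fit (log2 0.93, adjusted p = 0.182; 0.54 and 0.139 without CKD 1).

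**Figure D2:**
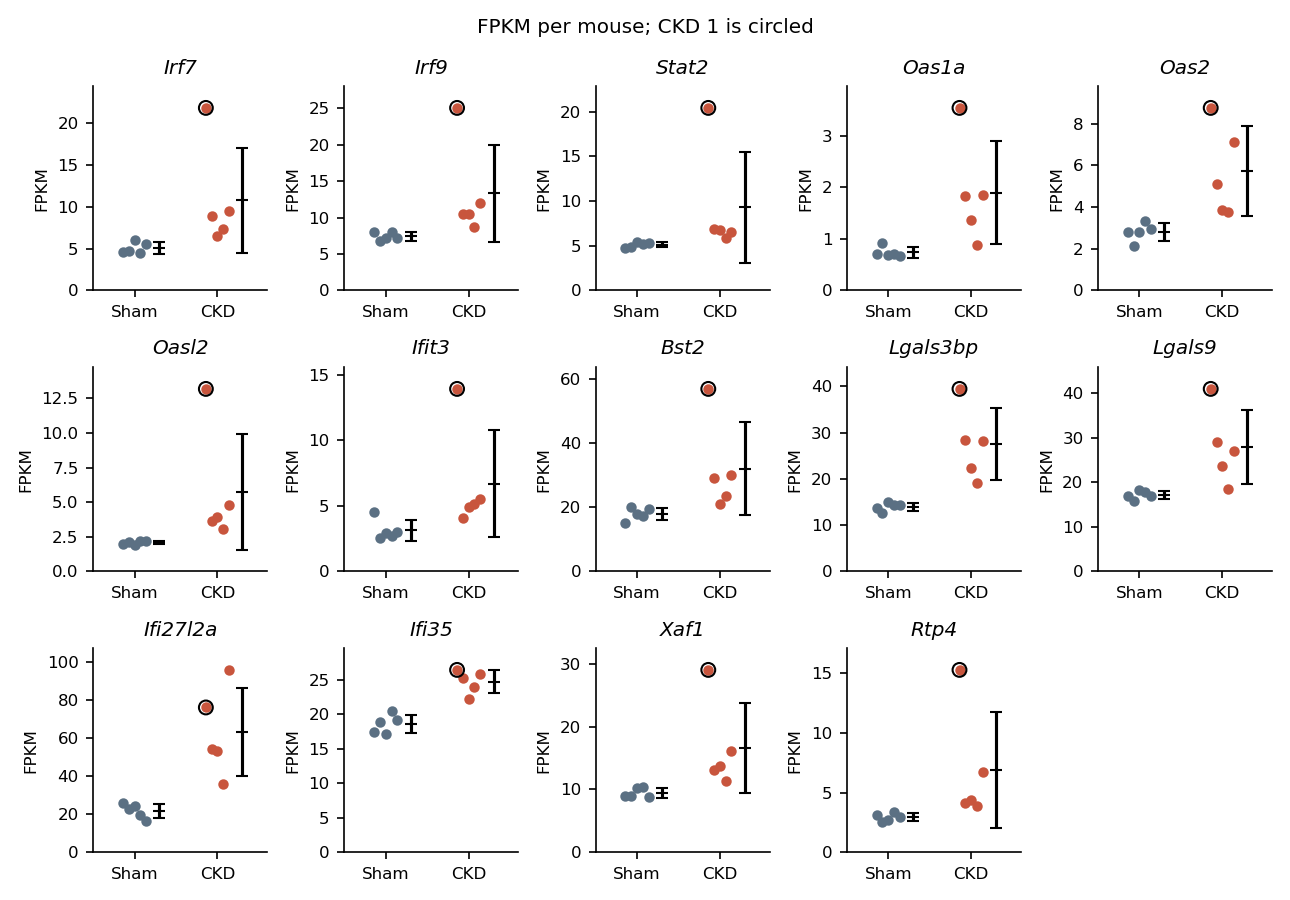
FPKM of the 14 interferon response genes called higher in CKD with all libraries or without CKD 1, by mouse (points; CKD 1 circled). Bars give each group's mean and SD on axes that begin at 0, and CKD 1 is far above the other CKD mice for Stat2 (20.4 against at most 6.82) but close to them for Ifi35 (26.4 against 25.8).

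In all, 14 members lay above every Sham mouse in all 5 CKD mice, against 4.08% of all genes. They were Irf7, Irf9, Stat2, Oas2, Oasl2, Bst2, Usp18, Parp9, Lgals3bp, Lgals9, Ifi27l2a, Ifi35, Xaf1 and Rtp4. Without CKD 1 the number was again 14, against 5.20% of all genes. In 11 more members, 4 of 5 CKD mice lay above every Sham mouse, against 4.57% of all genes. Every CKD value exceeded the Sham mean in 29 members, against 14.7% of all genes.

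The members differed in how far CKD 1 departed from the other CKD mice. Over the 36 tested members the ratio of CKD 1 to the Sham mean ran from 1.09 to 15.6 with a median of 3.12. The ratio of the mean of CKD 2 to CKD 5 to the Sham mean ran from 1.05 to 2.74 with a median of 1.41. For Herc6 the 2 ratios were 3.12 and 1.13, and for Isg15 4.06 and 1.28. For Stat2 they were 3.99 and 1.27, so most of the difference in the group means lay in CKD 1. In Ifi27l2a they were 3.48 and 2.74, and in Ifi35 1.42 and 1.31, where all 5 CKD mice shared the elevation. Both ratios use the same Sham mice, so they are given side by side.

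**Figure D3:**
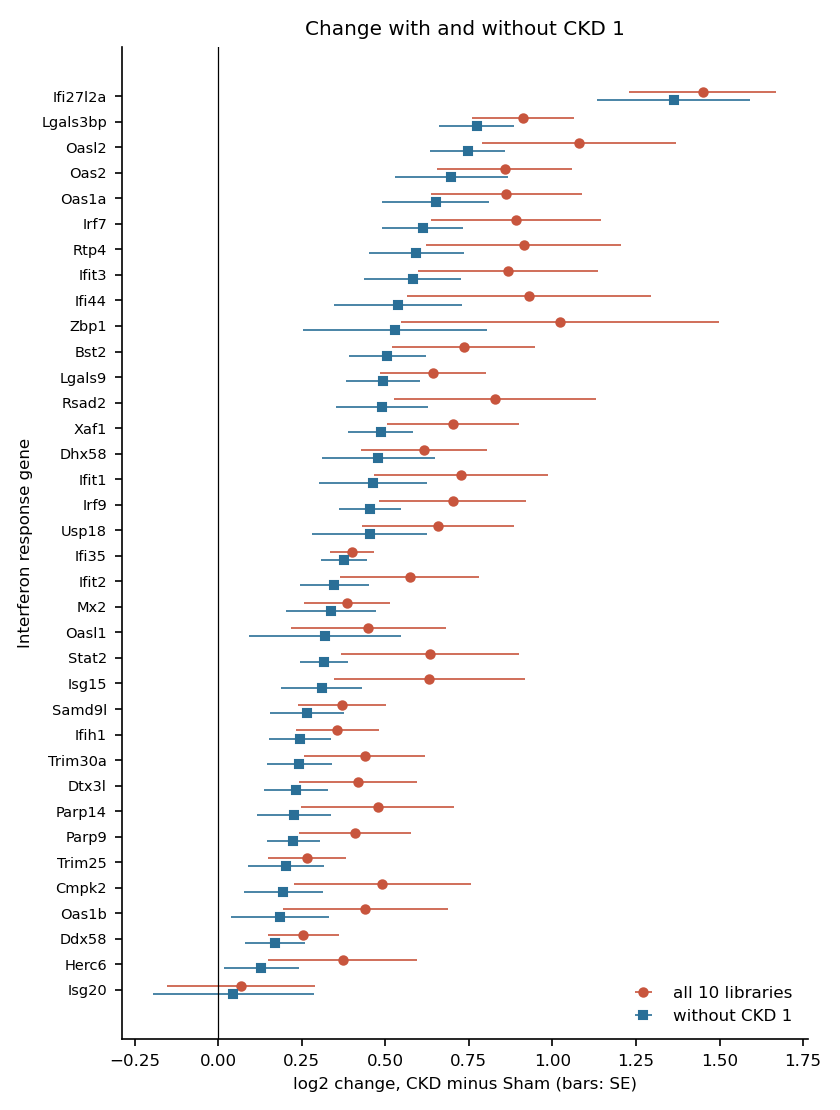
Change of each tested interferon response gene, CKD minus Sham, on the log2(FPKM + 0.5) scale (horizontal) with all 10 libraries (circles) and without CKD 1 (squares); bars are standard errors. Leaving out CKD 1 lowered the median from 0.63 to 0.41 and shortened the bars of genes such as Oasl2 and Stat2.

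The promoter matches shown earlier were compared with these changes as a description. Among the 26 tested members with a window, the 11 with a match had a median change of 0.64 (range 0.26 to 0.87), and the 15 without had 0.49 (0.07 to 1.08). The 2 ranges overlapped. Oasl2, Lgals3bp, Irf7, Irf9 and Xaf1 had no match in their windows, and windows for Ifi27l2a, Rtp4, Oas2 and Zbp1 were not used here.

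The interferon genes themselves were almost unlisted. Of 21 interferon ligand genes in the list used here, 19 were in the table and 16 of these were at 0 in all 10 libraries. Ifnb1, which encodes interferon beta, was listed above 0 only in Sham 4 (0.150 FPKM), and Ifng, which encodes interferon gamma, only in CKD 4 (0.0875 FPKM). With no counts in the table, a listing at 0 sets no limit on their level.

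Most receptors and kinases of the pathway did not pass. Ifnar1 and Ifnar2, the chains of the type I receptor, had CKD means of 7.27 ± 0.429 and 35.5 ± 2.68 FPKM and Sham means of 6.74 ± 0.953 and 36.0 ± 1.74 (SD, n = 5). Neither passed (adjusted p = 0.573 and 0.903). Jak1 and Tyk2 had changes of -0.02 and -0.02 (adjusted p = 0.938 and 0.919). Of the 11 receptor, kinase and STAT genes, 1 rose and 1 fell, with a median of 0.04. Of all genes, 3.08% were called higher and 1.97% lower. Stat3, a transcription factor shared with interleukin 6 signalling, rose 1.27-fold, from 46.8 ± 2.56 to 59.8 ± 4.91 FPKM (log2 0.35, SE 0.06, adjusted p = 0.00925). Ifngr2, the signalling chain of the interferon gamma receptor, fell, with all CKD mice below all Sham mice: the means were 96.3 ± 3.78 FPKM in CKD against 114 ± 4.97 (log2 -0.24, SE 0.05, adjusted p = 0.0123). Without CKD 1 these 2 genes were again the ones called, against 2.06% of all genes called lower in that fit.

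The pathway that induces interferon had 0 of 13 tested genes called by limma in either direction, with a median change of 0.13. At an unadjusted p under 0.05, 5 were higher, against 10.5% of all genes. Tmem173, the adaptor STING, had a change of 0.40 (adjusted p = 0.0870). All CKD mice lay above all Sham mice (4.08% of all genes), but only just, at 3.73 FPKM in CKD 3 and 3.72 in Sham 3. Mavs, the adaptor of the RNA helicases, and Irf3, the factor they activate, had changes of 0.13 and -0.04. Mb21d1, the DNA sensor cGAS, was at 0.199 to 0.511 FPKM outside CKD 1 and was not tested.

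Of 12 tested genes that restrain the response, remove nucleic acid or belong beside it, 2 rose, against 3.08% of all genes. They were Ifi30, a lysosomal thiol reductase (log2 0.51, adjusted p = 0.00766), and Ptpn11, the phosphatase SHP2 (log2 0.23, adjusted p = 0.0472, and 0.0502 without CKD 1). Socs1, the feedback inhibitor of JAK kinases, was at 5.69 FPKM in CKD 1 and at 0.584 to 1.21 in the other 9 libraries (adjusted p = 0.526). Adar, the RNA-editing enzyme, had a change of 0.26 and did not pass.

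In a further list of 40 interferon-inducible genes, 36 were tested, and the median change was 0.32. All 36 changes were positive, against 49.2% of all genes, and 35 were without CKD 1, against 48.0%. Ifi44l met the limit of 0.5 FPKM only through CKD 1, with means of 0.578 FPKM in CKD 2 to CKD 5 and 0.346 in Sham. With all libraries 1 rose, near the share of all genes called higher by limma (3.08%). It was Slfn2, a regulator of immune cell quiescence (2.13-fold, log2 1.09, SE 0.19, adjusted p = 0.00836). Without CKD 1, 4 rose, against 2.65% of all genes. They were Slfn2 (log2 0.94), the membrane restriction factor Ifitm3 (0.47, adjusted p = 0.0399), the nuclear body protein Sp110 (0.33, adjusted p = 0.0498) and Uba7, the activating enzyme for ISG15 (0.29, adjusted p = 0.0233). Ifitm3 was at 317, 176, 154, 134 and 220 FPKM in CKD 1 to CKD 5 and at 124, 127, 120, 116 and 118 in Sham 1 to Sham 5, with no overlap between the groups.

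Most genes of a list that responds above all to interferon gamma were high in CKD 1. Of 10 tested, 9 were highest in CKD 1, against 14.9% of all genes. Nos2 was not, with a mean of 4.95 FPKM in CKD, 5.14 in CKD 2 to CKD 5 and 5.20 in Sham. Over the 10 tested genes the mean deviation from Sham was 2.46 in CKD 1. It was 0.16 to 0.25 in CKD 2 to CKD 5 and -0.03 to 0.09 in Sham. Cxcl10 and Ido1 met the limit of 0.5 FPKM only through CKD 1. Their means were 0.383 and 0.440 FPKM in CKD 2 to CKD 5 and 0.278 and 0.255 in Sham. The count and score of CKD 1 therefore follow in part from the filter. The summed level of the list was 285 FPKM in CKD 1, 44.7 to 51.1 in CKD 2 to CKD 5 and 36.6 to 43.6 in Sham. Cxcl9, a chemokine for activated T cells, was at 17.9, 1.33, 0.965, 0.905 and 1.01 FPKM in CKD 1 to CKD 5 and at 1.74, 1.01, 1.35, 1.06 and 0.942 in Sham 1 to Sham 5. Cxcl10, a chemokine of the same receptor, was at 5.80 FPKM in CKD 1 and at most 0.559 elsewhere. In both, none of CKD 2 to CKD 5 lay above the Sham range. With limma no gene of the list was called with all libraries (2 higher at an unadjusted p under 0.05, against 10.5% of all genes). Gbp3, a guanylate-binding protein, rose without CKD 1 (log2 0.53, SE 0.10, adjusted p = 0.0178). The difference between this list and the members was not tested.

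**Figure D4:**
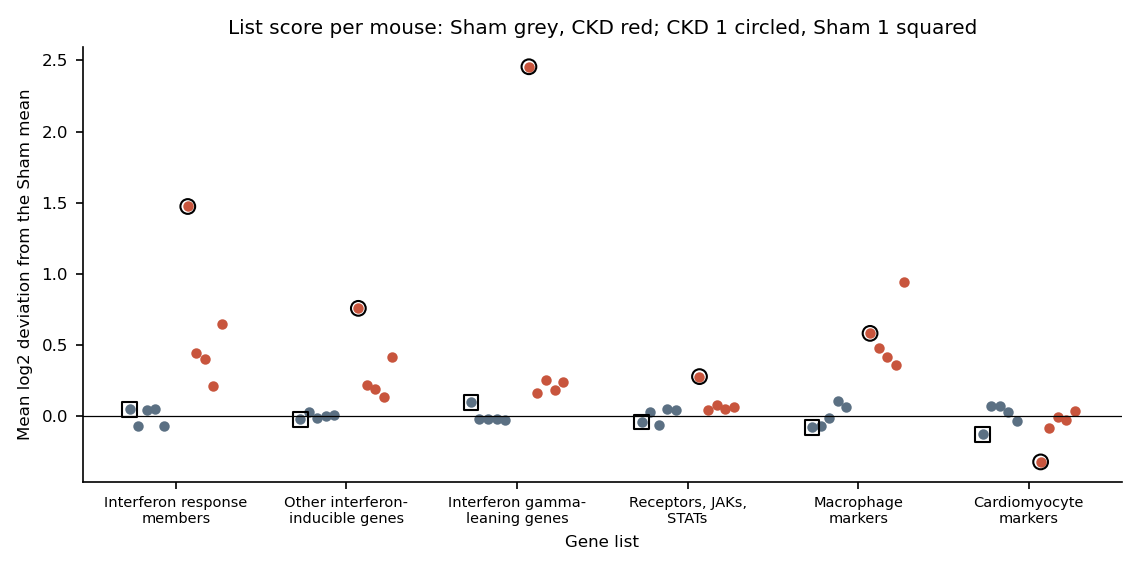
Mean deviation from the Sham mean (vertical, log2) of 6 gene lists in each mouse (points; Sham grey, CKD red, CKD 1 circled, Sham 1 squared). CKD 1 stands at 1.47 for the members and 2.46 for the interferon gamma-leaning genes, while its macrophage score of 0.58 is below that of CKD 5. Of the interferon gamma-leaning genes, Cxcl10 and Ido1 met the limit of 0.5 FPKM only through CKD 1. So did Ifi44l of the other interferon-inducible genes.

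Markers of other cells that could carry these transcripts moved with the groups in part. Of 11 tested macrophage markers 6 rose, against 3.08% of all genes, and 5 without CKD 1, against 2.65%. Fcgr1, called in both fits, met the limit of 0.5 FPKM only through CKD (means 1.04 FPKM in CKD and 0.431 in Sham). All 11 were detected, and their summed level was 384 to 557 FPKM in CKD and 273 to 329 in Sham. The macrophage score was highest in CKD 5 (0.94) and lowest among CKD mice in CKD 4 (0.36). The same mice were highest and lowest among CKD 2 to CKD 5 for the members. In CKD 1 the macrophage score was 0.58. This order was not particular to macrophage markers. The score of 2 red cell markers was also highest in CKD 5 (0.84) and lowest among CKD mice in CKD 4 (-0.39). Neutrophil and fibroblast scores were highest in CKD 5 too (1.58 and 0.36), but not lowest in CKD 4. Of 5 tested monocyte markers 2 rose (summed 15.2 FPKM in CKD 1, 8.53 to 11.2 in CKD 2 to CKD 5 and 5.58 to 9.09 in Sham). Of 6 fibroblast markers 2 rose (summed 608 to 751 FPKM in CKD and 548 to 613 in Sham), while limma called 0 of 7 endothelial markers. The part of these cells in the interferon result was not tested.

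The summed T cell and natural killer cell markers in CKD 1 lay within the range of the other mice. Of the single markers, all at low levels, Cd3e was highest in CKD 1, and Cd3g, Cd8a, Lck and Gzma were lowest there. The 7 natural killer cell markers summed to 0.908 FPKM in CKD 1, 0.524 to 1.06 in CKD 2 to CKD 5 and 0.643 to 2.20 in Sham, and the 9 T cell markers to 9.64, 9.06 to 10.5 and 8.19 to 11.0, most of it Thy1. The 6 B cell markers summed to 4.08 FPKM in CKD 1, above the 2.48 to 3.72 of CKD 2 to CKD 5 and within the 2.92 to 6.26 of Sham. Markers of plasmacytoid dendritic cells, a main source of interferon alpha, were summed leaving out Cox6a2, which heart muscle expresses. The sum was 10.7 FPKM in CKD 1, 4.68 to 6.14 in CKD 2 to CKD 5 and 3.79 to 5.03 in Sham. Most of the CKD 1 sum was Irf8, itself inducible by interferon gamma. Siglech, the defining marker, was at 0.141 FPKM in CKD 1, 0.129 to 0.239 in CKD 2 to CKD 5 and 0.0390 to 0.269 in Sham.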

How the data were processed

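RNA was measured in 10 left ventricles, 5 CKD and 5 Sham, by single-read TruSeq mRNA sequencing, per the labels' protocols. The authors deposited 1 table of FPKM values. The submitters' processing notes name STAR 2.4.0f1, Cufflinks 2.1.1 and Cuffdiff 2.1.1 as tools. They list the builds mm10 and hg19 without saying what hg19 was used for. The number of reads behind a value, the sharing of reads between related genes and the use of strand are not given in the sources used here. Precision therefore comes only from the spread between mice.

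Values were analysed as log2(FPKM + 0.5), which understates the change of low genes. The filter was an average of 0.5 FPKM or more across the 10 libraries. The two-sided fit used limma 3.58.1 in R 4.3.3 with its variance trend, and p-values were adjusted by Benjamini-Hochberg across the 12585 genes kept, at a threshold of 0.05. Summaries used Python 3.11.15 and pandas 2.3.3. The fit was tested on simulated data. Gene positions are those of GRCm38 in the RefSeq annotation, which is the assembly mm10 denotes. The members and the gene lists were chosen with earlier results of these data known. All members are named; values in every library are given for members called with or without CKD 1 and for the 8 with the largest ratio of CKD 1 to Sham, and also for Oas3, Eif2ak2, Isg15, Ifitm3 and Cxcl9, picked after their values were seen, as were the single cell type markers named. Other pathway genes were named from a list or where they passed, and 1 of them is not reported here. Alternatives changed the pseudocount, filter, scaling, variance model, weights or threshold, or left out libraries.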

Additional observations from a re-analysis of the deposited data

Results flagged for a closer look

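A library far from the 4 others of its group was sought in each group of 5, for the 36 tested members and their mean score, on the log2(FPKM + 0.5) scale. The measure is the gap to the nearest other library divided by the range of the group, and 0.71 is the limit for 5 samples. Of 74 groups, 14 exceeded it, and 10 of the 14 were CKD 1. Chance flags about 1 in 20 independent groups, but the members vary together and were chosen with the high values of CKD 1 known, so the number is a description only. CKD 1 stood off on the high side for Dtx3l (0.893), Stat2 (0.888), Parp9 (0.86), Cmpk2 (0.818), Rsad2 (0.772), Ifit3 (0.752), Parp14 (0.751), Ddx58 (0.737), Herc6 (0.712) and Ifih1 (0.711). Among the Sham mice, Sham 1 stood off for Trim30a (0.733) and Ifit3 (0.718), Sham 2 for Oas1a (0.844) and Sham 5, on the low side, for Usp18 (0.847).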

How the results depend on the processing

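The number of members called higher (6) was 3 with no filter on low values (2.00% of all genes called higher), 14 at a threshold of 0.1 (5.36%) and 10 without both CKD 1 and Sham 1 (2.50%), and ran from 3 to 14 when 1 library was left out (1.76% to 3.22%). Without CKD 1 the number (14) was 8 with no filter (1.64%). No alternative called a member lower. The median change ran from 0.41 to 0.76 over fits that left out 1 library and was 0.49 with sample weights. Of the values for single members under the 22 alternatives, 726 kept their direction and side of the threshold, 33 lost a call and 29 gained one. The 4 that changed sign were all of Isg20, which was not called: -0.091 when CKD 1 and Sham 1 were left out together, -0.12 with weights estimated per sample, and below 0 without CKD 5 or Sham 1, in a range from -0.097 to 0.19 over the fits without 1 library. Lost calls were those of Oas1a in 14 of 22 alternatives (highest adjusted p = 0.108), Lgals9 in 12 (0.0980) and Oas2 in 7 (0.0787); the cause was not tested. Scaling moved the median of all genes by at most 0.01. No paired analysis was possible because the labels give the 2 groups no shared replicate numbers. Depth is not known in reads, so low values such as those of Oas3 and Mx1 carry an error that cannot be stated.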
